A study of Mus musculus with 10 samples.

Results

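The Hox genes of the mouse lie in 4 clusters, HoxA, HoxB, HoxC and HoxD. All genes whose symbol is Hoxa, Hoxb, Hoxc or Hoxd followed by a number were taken, which gave 39 of the 49943 genes of the RefSeq gene table (assembly GRCm38.p6, the same chromosome coordinates as mm10). HoxA held 11 of them, HoxB 10, HoxC 9 and HoxD 9. Each gene was described by the peaks of open chromatin that touched its window, from 2 kb before to 2 kb after the gene, and each cluster by the peaks between its first and last gene and in flanks of 50 kb.

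The assay was ATAC-seq: a transposase inserts sequencing adapters where DNA is accessible. There were 10 libraries from cells of strain C57BL/6 x 129, 2 at each of 5 stages of reprogramming, and all carried one batch name. MEF were embryonic fibroblasts in fibroblast medium without the inducer. They had the genotype OKSM Col1a1/M2rtTA ROSA26, in which doxycycline switches on one transcript for Oct4, Klf4, Sox2 and Myc. DAY3, DAY6 and DAY9 were these fibroblasts after 3, 6 and 9 days in stem cell medium with 1 ug/ml doxycycline and 50 ug/ml ascorbic acid. DAY3 was unsorted, and DAY6 and DAY9 were labelled as sorted for SSEA+, so that the sort and the later days cannot be told apart. ESC were cells of the line V6.5, without the cassette or the inducer, kept on irradiated feeder cells with LIF. The feeder cells are a possible further source of open chromatin, and their part was not tested. The labels do not say whether the 2 libraries of a stage came from separate cultures or embryos, so that a p-value measures only the spread between libraries. The study dealt with KLF4 binding and enhancer networks in pluripotency. The comparison made here asks how the accessible DNA of the 4 clusters differed by stage.

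Hox proteins are homeodomain transcription factors that give cells along the body axis their positional identity. Within a cluster the genes stand in the order of their paralog groups. Genes of the low groups, at the anterior end, are expressed towards the head, and genes of the high groups, at the posterior end, towards the tail and in the distal limbs. Fibroblasts keep a Hox expression pattern that reflects where in the body they came from. In embryonic stem cells most Hox genes are held silent by Polycomb proteins on chromatin that also carries activating marks. Here groups 1 to 3 were called anterior (8 genes), groups 4 to 8 central (15 genes) and groups 9 to 13 posterior (16 genes).

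HoxA, on chromosome 6 with Hoxa13 as its last gene, spanned 105.5 kb, and HoxB ran from Hoxb1 to Hoxb13 on chromosome 11 (96194316 to 96368254, 173.9 kb). HoxC ran from Hoxc4 to Hoxc13 on chromosome 15 (102921131 to 103036856, 115.7 kb), and HoxD from Hoxd1 to Hoxd13 on chromosome 2 (74668225 to 74765142, 96.9 kb). The gene models of Hoxa3, Hoxb3 and Hoxd3 were 44009, 40830 and 36279 bp long and spanned other genes of their cluster. Windows of neighbours overlapped, so that one peak could count for several genes.

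Promoter sequences (RefSeq, GRCm38.p6) were matched for 22 of the 39 genes, as 24 windows of 300 bp from 250 bases before to 50 bases after a start. Of these, 3 are shown as the 250 bases before the start, in the gene's direction: Hoxa5, which had a peak there in 10 of 10 libraries, and both end genes of HoxD, Hoxd1 (8 libraries) and Hoxd13 (9 libraries). The capitals mark matches to CCNCNCCC, the letters bound by KLF factors, and, in Hoxd13, also to AGGGGGC, part of the core bound by CTCF, both searched on both strands. The stretches are chr6:52204588-52204837 (minus strand, also inside the long Hoxa3 model), chr2:74762730-74762979 (plus strand) and chr2:74667975-74668224 (plus strand).
Hoxa5: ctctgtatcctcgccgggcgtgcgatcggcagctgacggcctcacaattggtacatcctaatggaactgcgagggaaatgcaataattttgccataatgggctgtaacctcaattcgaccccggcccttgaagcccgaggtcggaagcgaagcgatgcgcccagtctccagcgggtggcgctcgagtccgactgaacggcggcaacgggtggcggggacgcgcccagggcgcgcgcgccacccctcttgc
Hoxd1: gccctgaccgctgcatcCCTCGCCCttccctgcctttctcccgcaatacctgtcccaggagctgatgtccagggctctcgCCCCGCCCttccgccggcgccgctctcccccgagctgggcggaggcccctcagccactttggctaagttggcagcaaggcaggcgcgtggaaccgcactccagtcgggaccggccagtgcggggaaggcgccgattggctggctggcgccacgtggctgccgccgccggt
Hoxd13: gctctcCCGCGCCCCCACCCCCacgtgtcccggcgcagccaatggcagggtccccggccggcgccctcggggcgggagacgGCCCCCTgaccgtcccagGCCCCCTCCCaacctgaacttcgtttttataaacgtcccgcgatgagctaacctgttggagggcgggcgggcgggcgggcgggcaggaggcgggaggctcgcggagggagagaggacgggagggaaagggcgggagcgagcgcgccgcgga

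The Hoxa5 stretch held none of the letters searched, and the Hoxd1 stretch held 2 matches to the KLF letters. The Hoxd13 stretch held 4 KLF matches and 2 matches to the CTCF part. Over the 24 Hox promoter windows, CCNCNCCC was found in 17 (70.8%), beside 49.5% of all 32851 promoter windows of that length. AGGGGGC was found in 2 (8.33%, beside 10.6% of all), the GC box GGGGCGGGG in 1 (4.17%, beside 11.4%) and the AP-1 letters TGANTCA in 1 (4.17%, beside 7.81%). The octamer ATGCAAAT was in 0 of 24, beside 1.74% of all, and TGATTNAT, read by PBX and HOX proteins together, in 2 (8.33%, beside 3.22%). A GC box can overlap a KLF match. Median GC content was 57.7% in the Hox windows and 52.7% in all, and the median number of CpG dinucleotides was 14 and 7. Of the 24 windows, 2 (8.33%), those of Hoxa5 and Hoxd10, had a peak in all 10 libraries, beside 34.0% of all promoters, and 6 (25.0%) had a peak in none, beside 44.5%. From HoxB only Hoxb1, Hoxb4 and Hoxb8 were matched, and from HoxC only Hoxc4. The promoter values therefore describe mostly HoxA and HoxD.

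The clusters also hold microRNA genes of the families miR-10 and miR-196, which are known to target Hox transcripts. Their mature sequences (RefSeq) are given because peaks at Mir10b and Mir196b differed between the end stages. The capitals mark the seed, bases 2 to 8, which is ACCCUGU in one family and AGGUAGU in the other.
miR-10a-5p: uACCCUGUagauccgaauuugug
miR-10b-5p: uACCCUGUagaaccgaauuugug
miR-196a-5p: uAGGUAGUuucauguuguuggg
miR-196b-5p: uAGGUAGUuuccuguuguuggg

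The lists held 45497 to 88980 peaks with a median width of 438 to 532 bp. Read totals were not given in the sources used here. The background pileup that each list implies, a measure of relative depth, lay between 2.327 (DAY6 replicate 2) and 8.322 (MEF replicate 2). A noise ratio, which is 1 where libraries differ by counting alone, was 1.33 between the DAY3 libraries and 1.45 between the DAY9 libraries, against 3.63 to 10.52 within the other stages and 4.30 to 38.24 over the 40 pairs from different stages. Each of these close pairs differed by little more than sampling noise and was counted as 1 sample, which left 8 samples and no SD for DAY3 and DAY9. Of 10 marker genes of embryonic stem cells, 4 had a peak in both MEF libraries, 5 in both of DAY3, 9 of DAY6, and 10 of DAY9 and of ESC. Of 10 fibroblast genes, 10 had one in MEF and 7 at each later stage, and a peak at a gene is not its expression. Markers of other cells were listed as well: in MEF both libraries had a peak at 2 of 4 blood genes (Hbb-bs at none of the 10 libraries), 2 of 3 endothelial and 4 of 5 trophoblast and endoderm genes, and in ESC at 3, 3 and 5. Single libraries had a peak at 43.4 to 55.0% of all genes and 67.9 to 77.2% of protein-coding genes. The marker counts can therefore not be read as a sign of which cells were present.

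With all peaks of each list, 1 library stood apart at the Hox genes. MEF replicate 1 had a peak at 35 of the 39 genes and MEF replicate 2 at 22. In all, 14 genes (35.9%) had a peak in replicate 1 only, where 5.95% of all genes did, and 1 gene, Hoxa13, in replicate 2 only. The 14 were Hoxa7, then Hoxb3, Hoxb4, Hoxb5, Hoxb6, Hoxb7 and Hoxb13, then Hoxc4, Hoxc5, Hoxc10, Hoxc11, Hoxc12 and Hoxc13, and Hoxd1. They thus lay mostly in HoxB (6) and HoxC (6). Replicate 2 had the higher background pileup of the pair (8.322 against 3.415) and the shorter list (64295 against 74444 peaks). With every list reduced to its 45497 strongest peaks, 9 genes (23.1%, beside 4.20% of all genes) were in replicate 1 only, 7 of them among the 14, and 2 in replicate 2 only. The 9 were spread over HoxA (2), HoxB (3), HoxC (3) and HoxD (1). At that list length the MEF libraries had a peak at 25 and 18 genes and the ESC libraries at 23 and 12. ESC replicate 2 was then the lowest library, and the ESC pair lay further apart than the MEF pair. With all peaks the difference was smaller in the other stages than in MEF. DAY6 replicate 1 alone had peaks at 5 genes (12.8%, beside 4.04% of all genes), ESC replicate 1 alone at 5 (12.8%, beside 4.36%), and the second library of both stages had no gene of its own. The main counts and tests that rest on MEF are therefore also given without MEF replicate 2. The samples were bulk, so that fewer cells with an open site and less open chromatin per cell cannot be told apart.

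Most Hox genes had a peak nearby at every stage. In the 2 libraries of each stage, MEF had a peak at 35 and 22 genes, DAY3 at 33 and 31, DAY6 at 38 and 33, DAY9 at 37 and 36, and ESC at 37 and 32. These were 56.4 to 97.4% of the Hox genes, beside 43.4 to 55.0% of all genes and 67.9 to 77.2% of protein-coding genes. MEF replicate 2 (56.4%) lay above its share of all genes (48.0%) and below that of protein-coding genes (71.1%). Every other library lay above both of its shares. The means were 28.5 ± 9.19 (SD, n = 2) in MEF, 32.0 at DAY3, 35.5 ± 3.54 (n = 2) in DAY6, 36.5 at DAY9 and 34.5 ± 3.54 (n = 2) in ESC. Only MEF replicate 2 lay far below the rest, and the ranges of MEF, DAY6 and ESC overlapped. With every list reduced to its 45497 strongest peaks the order was another: the means were 21.5 in MEF, 32.0 at DAY3, 28.0 for DAY6, 27.0 for DAY9 and 17.5 in ESC, and the lowest library was ESC replicate 2 with 12 genes (MEF replicate 2 had 18). The share of the sum of squares between stages was 39.2%, with p = 0.683 in an exact permutation test (287 of 420 arrangements of the 8 samples, smallest possible p 0.00238). Without MEF replicate 2 it was 32.3% with an exact p of 0.943.

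**Figure D1:**
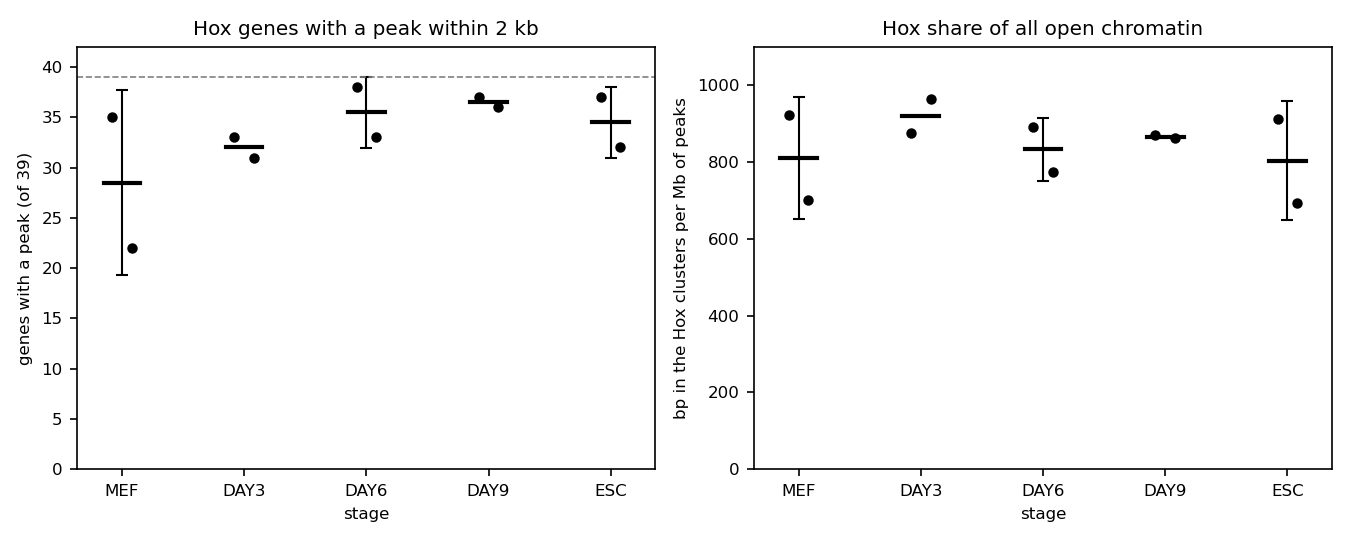
Left, the number of the 39 Hox genes (y axis) with a peak in the window from 2 kb before to 2 kb after the gene, by stage (x axis), with a dashed line at 39. Right, base pairs of peaks in the 4 clusters with flanks per Mb of peaks in the list. Points are libraries, bars are means and error bars are SD where a stage counts as 2 samples. MEF replicate 2 is lowest on the left with 22 genes, and on the right the libraries lie between 694 (ESC replicate 2) and 965 bp per Mb (DAY3 replicate 2).

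The base pairs under peaks did not pass a test between stages either. Peaks covered 6.59 ± 2.14% of the gene windows in MEF, 6.22% at DAY3, 7.02 ± 1.23% for DAY6, 8.63% at DAY9 and 7.88 ± 0.650% in ESC (SD, n = 2 where given). The stages accounted for 42.1% of the sum of squares (exact permutation p = 0.695). The whole clusters with their flanks were covered to 3.56 ± 1.35%, 2.85%, 3.42 ± 0.717%, 4.43% and 4.53 ± 0.581% in the same order (50.9%, exact permutation p = 0.598). Without MEF replicate 2 the shares were 67.6% for the windows (exact permutation p = 0.476) and 77.8% for the clusters (exact permutation p = 0.371). Since the lists differ in length, the Hox base pairs were also taken per Mb of all peaks. MEF had 923 and 700 bp per Mb, DAY3 875 and 965, DAY6 892 and 775, DAY9 870 and 862, and ESC 913 and 694. The ranges of MEF and ESC nearly coincided and held those of DAY6 and DAY9, while both DAY3 libraries lay above both of DAY9. Between stages lay 16.9% of the sum of squares (exact permutation p = 0.979). Along the course from MEF to DAY9 the mean difference was 54.8 bp per Mb (exact Jonckheere-Terpstra permutation test, two-sided, p = 0.711, 128 of 180 assignments, smallest possible p 0.0111). It was -56.7 without MEF replicate 2 (exact p = 0.133).

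A peak in all 10 libraries was found at 18 of the 39 genes (46.2%), and no gene lacked a peak in every library. The count is of windows, and the peaks need not be at the same site. In the windows of Hoxb2, Hoxb8 and Hoxd11 no single site was open in all 10 libraries. The share of genes with a peak in all 10 libraries was 35.2% over all genes and 61.4% over the 21887 protein-coding genes. The median window was 7737 bp for Hox genes, 9956 bp for all genes and 21169 bp for protein-coding genes, and a longer window has more room for a peak. By cluster the count depended on MEF replicate 2. HoxA had 7 such genes of 11 (among them Hoxa3, Hoxa4, Hoxa5, Hoxa6, Hoxa10 and Hoxa11) and HoxD 7 of 9 (Hoxd3 and Hoxd8 to Hoxd13). HoxB had 3 of 10 (Hoxb2, Hoxb8 and Hoxb9) and HoxC 1 of 9 (Hoxc6). Of the anterior genes 4 of 8, of the central genes 6 of 15 and of the posterior genes 8 of 16 had a peak in all 10 libraries. Over the 9 libraries without MEF replicate 2, 25 genes (64.1%, beside 36.2% of all and 62.5% of protein-coding genes) had a peak in every one. They were 8 of HoxA, 6 of HoxB, 4 of HoxC and 7 of HoxD, so that HoxB and HoxC together went from 4 to 10 genes, and HoxA and HoxD from 14 to 15.

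**Figure D2:**
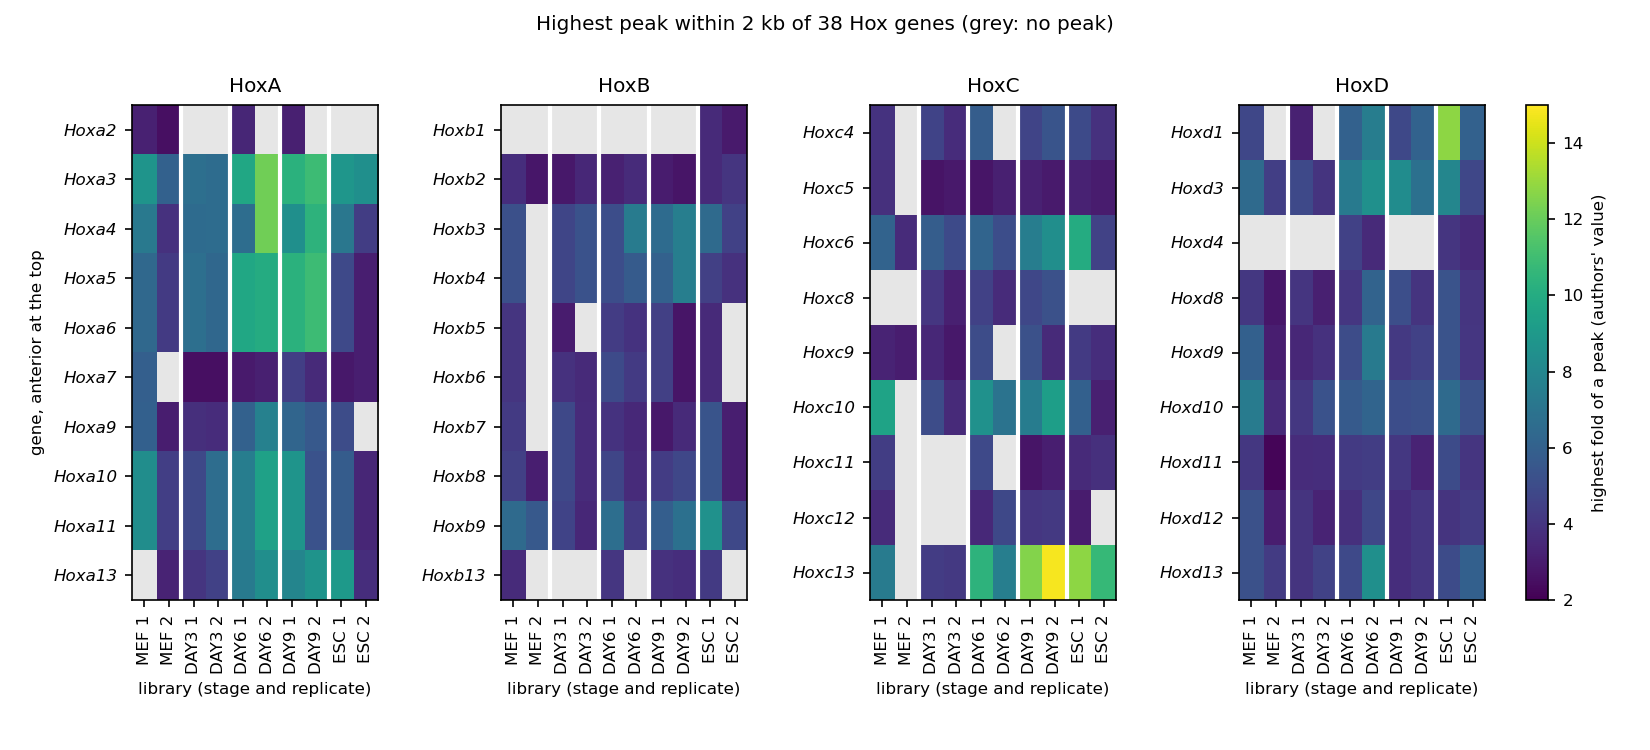
Highest fold enrichment of a peak in the window of each of 38 Hox genes (rows, with a panel for each cluster, in paralog order) in each of the 10 libraries (columns, by stage), on a colour scale. Grey cells have no peak. In the MEF replicate 2 column the gaps gather in HoxB and HoxC, and Hoxb1 is filled in ESC only.

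The fold given here is the authors' enrichment of a peak's summit over its local background, the highest in a gene's window. The highest peak can be at different sites of the window in different libraries. Depth differed between lists, so folds are a description. At the posterior end of HoxA, Hoxa13, needed for digits and the urogenital tract, had no peak in MEF replicate 1, 3.31 in MEF replicate 2, 4.02 and 4.52 at DAY3, 7.30 and 8.40 at DAY6, 7.92 and 8.66 at DAY9, and 8.99 and 3.72 in ESC. It was thus low or unlisted in MEF and high in DAY6 and DAY9, and the ESC libraries fell on both sides. Within HoxA, Hoxa5, a regulator of lung and axial skeleton development, had 6.40 and 4.20 in MEF, 6.73 and 6.35 at DAY3, 9.73 and 10.0 at DAY6, 10.3 and 10.9 at DAY9, and 4.89 and 3.11 in ESC. DAY6 and DAY9 lay above all other libraries at Hoxa5. Its peak, at 52203552 to 52204839, lies also in the window of Hoxa6, which therefore had the same folds.

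The HoxA region with the highest score in both MEF replicate 1 and ESC replicate 1 was one and the same. It lay at 52172280 to 52173054 on chromosome 6, inside the Hoxa3 gene model and 17.3 kb from the anterior end, and was open in all 10 libraries. Its folds were 8.73 and 5.65 in MEF, 5.45 and 3.44 at DAY3, 8.29 and 9.01 at DAY6, 9.20 and 9.92 at DAY9, and 8.82 and 8.49 in ESC. At Hoxa10 and Hoxa11, posterior genes of limb and uterus, a shared peak had folds between 3.41 (ESC replicate 2) and 9.43 (DAY6 replicate 2). Hoxa4 ranged from 3.86 (MEF replicate 2) to 12.2 (DAY6 replicate 2), and Hoxa3 from 6.03 (MEF replicate 2) to 12.2 (DAY6 replicate 2).

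In HoxB the first and the last gene had few peaks. Hoxb1, which sets the identity of a hindbrain segment, had peaks in ESC only, with folds of 3.57 and 2.94, near the low end of the folds listed. Hoxb13, a posterior gene known from prostate and tail, had 3.62 and none in MEF, none at DAY3, 4.04 and none at DAY6, 3.84 and 3.70 at DAY9, and 4.22 and none in ESC. Only DAY9 had it in both libraries. Of the 3 HoxB genes with a peak in all 10 libraries, Hoxb9 had the highest fold, between 3.47 (DAY3 replicate 2) and 8.57 (ESC replicate 1). Hoxb8 lay between 3.10 and 5.37, and Hoxb2 between 2.75 and 4.03. Hoxb9 had the same region open in all 10 libraries. The peaks of Hoxb8 and Hoxb2 were at different sites in different libraries, and none of these sites was open in all 10.

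The strongest HoxB regions of the end stages lay outside the run of genes. In MEF it was at 96413476 to 96414315 on chromosome 11, in the anterior flank 45.2 kb from Hoxb1, with folds of 9.86 and 7.07 in MEF and 3.83 in DAY3 replicate 2, and no peak in the other 7 libraries. In ESC it was at 96190054 to 96190650, in the posterior flank 3.7 kb from Hoxb13, with folds of 9.68 and 5.57 in ESC and 2.64 in DAY9 replicate 1. Of these top regions, the fibroblast one was at the anterior side and the stem cell one at the posterior side of the cluster. Weaker regions did not keep to these sides. A region 10.6 kb from Hoxb9 was listed in MEF only, with folds of 9.80 and 4.18. A region 1.6 kb from Hoxb1 was listed in ESC only, with 3.57 and 2.94. Another region, chosen after its values were seen, lay at 96383135 to 96383877, 14.9 kb from Hoxb1. It had folds of 12.9 and 12.3 at DAY9 and 3.61 in DAY6 replicate 2, and no peak in MEF, DAY3 or ESC.

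In HoxC the last gene had higher values than the first in every library of DAY6, DAY9 and ESC. Hoxc13, known for its part in hair and nails, had 7.40 and none in MEF, 4.30 and 4.15 at DAY3, 10.4 and 7.56 at DAY6, 12.6 and 14.8 at DAY9, and 12.8 and 10.7 in ESC. Every DAY6, DAY9 and ESC library lay above every MEF and DAY3 library. Hoxc4, the first gene of this cluster, had 3.88 and none in MEF, 4.60 and 3.67 at DAY3, 5.82 and none at DAY6, 4.68 and 5.37 at DAY9, and 4.91 and 3.87 in ESC. Both DAY9 values of Hoxc4 lay above both of DAY3, and MEF and DAY6 had 1 library each without a peak. The MEF replicate 1 value was at another site (103027289 to 103027794) than the values of the other stages (103033888 to 103035255). The site of the other stages had no peak in either MEF library. Hoxc6, a central gene of the thoracic region, was the one HoxC gene with a peak in all 10 libraries, from 3.62 (MEF replicate 2) to 10.0 (ESC replicate 1).

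The region with the highest HoxC score in MEF replicate 1 was at 102966317 to 102967493 on chromosome 15, across the posterior gene Hoxc10. Its folds were 9.54 in MEF replicate 1, none in MEF replicate 2, 5.01 and 3.55 at DAY3, 8.58 and 6.94 at DAY6, 7.46 and 9.30 at DAY9, and 6.01 and 3.13 in ESC. The MEF libraries thus held both the highest value and the lack of a peak. In ESC replicate 1 the strongest was the Hoxc13 region at 102920249 to 102922339, 2091 bp wide. Hoxc8, a central gene of the trunk, had no peak in MEF or ESC and folds of 4.08 and 3.12 at DAY3, 4.52 and 3.61 at DAY6, and 4.79 and 5.20 at DAY9. It was the 1 Hox gene with peaks in both libraries of a day and in no MEF or ESC library, a pattern at 1.75% of all genes, and is named because its values were seen.

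In HoxD, Hoxd3 and the whole run from Hoxd8 to Hoxd13 had peaks in all 10 libraries, and Hoxd1 and Hoxd4 did not. Hoxd13, the last gene, which shapes digits, had 5.21 and 4.26 in MEF, 3.97 and 4.55 at DAY3, 4.86 and 8.45 at DAY6, 3.72 and 4.05 at DAY9, and 4.99 and 6.00 in ESC. The highest value was in DAY6 replicate 2, and both ESC libraries lay above both of DAY3 and of DAY9. Hoxd1, the first gene, had 4.76 and none in MEF, 3.17 and none at DAY3, 6.06 and 7.51 at DAY6, 4.80 and 6.09 at DAY9, and 12.8 and 6.04 in ESC. The highest Hoxd1 value was in ESC replicate 1, and the other ESC library lay within the range of DAY6 and DAY9. Hoxd9, Hoxd10, Hoxd11 and Hoxd12, which act in forearm and hand and in the lower spine, had folds from 2.19 (Hoxd11, MEF replicate 2) to 7.41 (Hoxd10, MEF replicate 1). Hoxd8 ranged from 2.79 to 6.15 and Hoxd3 from 3.96 to 8.54.

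The HoxD region with the highest score in MEF replicate 1 lay at 74795377 to 74795933 on chromosome 2, 30.2 kb before Hoxd1 in the anterior flank. It was listed in MEF only, with folds of 11.3 and 2.57. In ESC replicate 1 the strongest region was the start of Hoxd1 at 74762650 to 74763688, which holds the Hoxd1 promoter printed above. In MEF replicate 2 the HoxD region with the highest score was another, the one across the start of Hoxd13 (74667085 to 74668928).

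**Figure D3:**
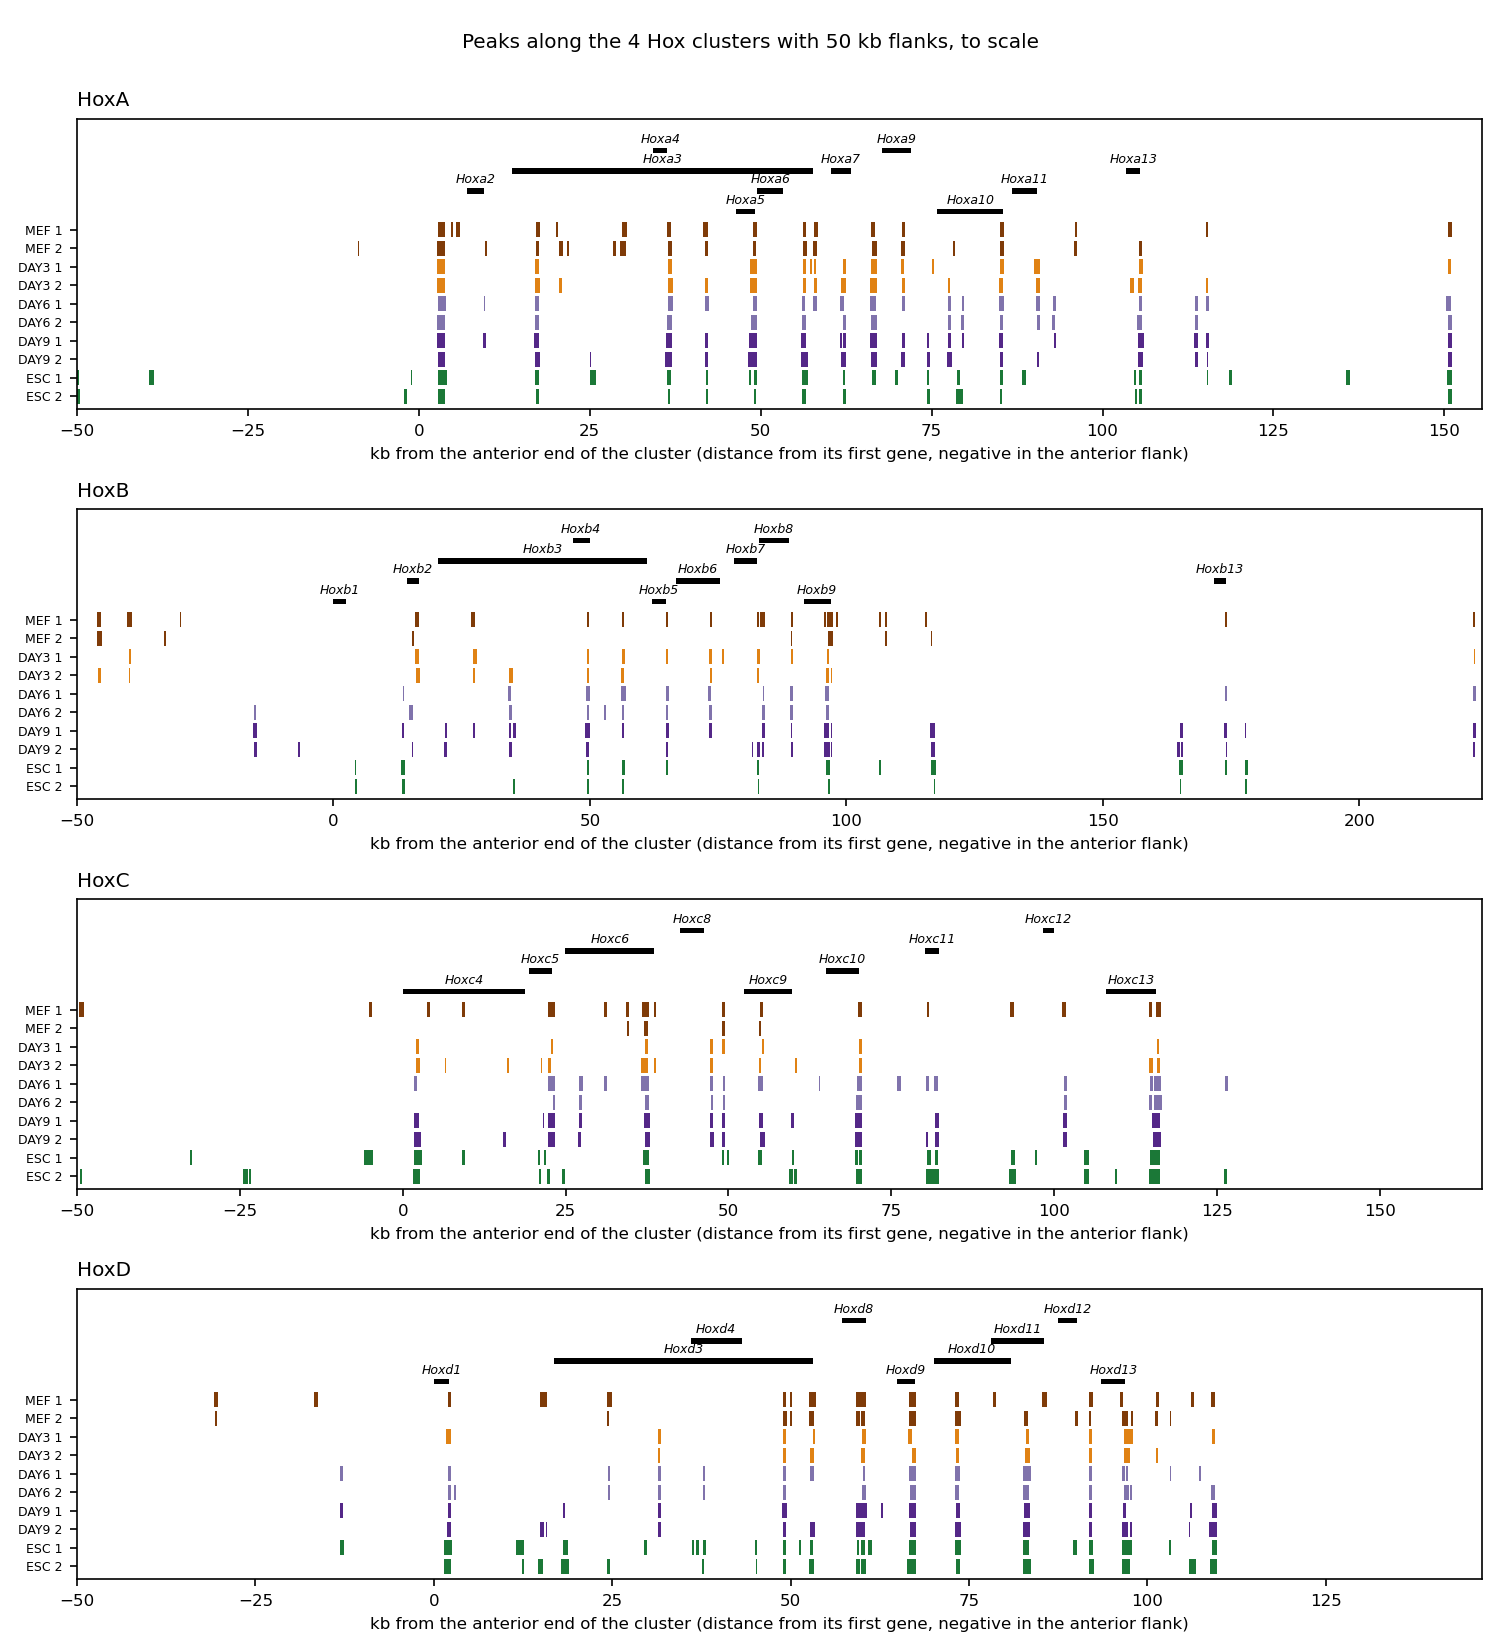
Peaks (coloured ticks, to scale) in the 10 libraries (rows) along HoxA, HoxB, HoxC and HoxD, with the models of 38 genes as black bars. The x axis is the distance in kb from the anterior end, negative in the anterior flank. Peaks stand mostly among the genes, and the stretch of HoxB between Hoxb9 and Hoxb13 holds few peaks.

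Few genes met the rule for gained or lost, which asks for a peak in both libraries of one stage and in neither of the other. With 2 libraries against 2 these calls carry no p-value. The comparisons with MEF share the MEF libraries, and those with DAY6 or DAY9 share these. Hoxb1 and Hoxd4 were gained in ESC against MEF (2 of 39, beside 6.42% of all genes), and Hoxa2 was lost (1 of 39, beside 3.07%). Hoxd4, a central gene of the neck region, had no peak in MEF or DAY3, folds of 4.49 and 3.57 at DAY6, none at DAY9, and 4.02 and 3.56 in ESC. Hoxa2, needed for the second pharyngeal arch, had 3.21 and 2.55 in MEF, none at DAY3, 3.38 and none at DAY6, 3.13 and none at DAY9, and none in ESC. Its MEF peaks were at separate sites, 52160801 to 52161355 in replicate 1 and 52164732 to 52165329 in replicate 2. The latter site was also listed in DAY6 replicate 1 and DAY9 replicate 1. The loss of Hoxa2 is thus a call on its whole window, and neither site met the rule by itself. All 3 genes had low folds in every library that listed them. Which genes were called changed with the setting. In ESC against MEF, equal numbers of peaks gave Hoxd1 alone as gained (beside 4.78% of all genes). The top 50% of each list gave Hoxd1 and Hoxd11 (beside 5.82%). The gene without flank gave Hoxa7 and Hoxd4 (beside 5.04%). Hoxb1 and Hoxd4 were gained again with 5 kb beside the gene (beside 7.16%). With 50% of the peak in the window Hoxa7 joined them (beside 6.23%). Of these, only the last lost Hoxa2 (beside 3.03%). The main counts also turned on the MEF library used. With MEF replicate 2 as the only MEF library, 12 genes were gained in ESC instead of 2 (beside 9.66% of all genes under that rule), 10 in DAY3 (beside 3.02%), 13 in DAY6 (beside 6.11%) and 15 in DAY9 (beside 9.36%). With MEF replicate 1 as the only one, 3 were gained in ESC (Hoxa13, Hoxb1 and Hoxd4, beside 7.56%), 2 in DAY3 (beside 2.1%), 3 in DAY6 (beside 4.22%) and 2 in DAY9 (beside 7.04%), and DAY3 lost 4 genes (beside 8.48%).

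Against MEF, DAY3 gained 1 gene, Hoxc8 (beside 1.60% of all genes), and lost 1, Hoxa2 (beside 4.96%). DAY6 gained Hoxc8 and Hoxd4 against MEF (2, beside 3.50%) and lost 0 (beside 3.71%). DAY9 gained Hoxc8 (1, beside 5.88%) and lost 0 (beside 3.36%). From DAY3 to DAY6 Hoxc12 and Hoxd4 were gained (2, beside 3.74%) and 0 were lost (beside 0.557%). From DAY6 to DAY9 the count was 0 gained (beside 2.24%) and 1 lost, Hoxd4 (beside 0.370%). From DAY9 to ESC, Hoxb1 and Hoxd4 were gained (2, beside 3.46%) and Hoxc8 was lost (1, beside 2.60%). Each of these counts is 0 to 2 genes of 39, too few to set apart from the share among all genes. Hoxc8 was again gained on every day against MEF with 50% of the peak in the window. It was gained on none in the gene without flank or with 5 kb beside the gene.

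The clusters and flanks together held 150 of the 208827 regions found when the 10 lists were merged, 43 in HoxA, 33 in HoxB, 39 in HoxC and 35 in HoxD. In ESC against MEF 18 were gained (12.0%, beside 15.9% of all regions) and 11 lost (7.33%, beside 11.1%). A further 9 were seen in both libraries of a day and in no MEF or ESC library (6.00%, beside 9.61%), and 14 were present in all 10 libraries (9.33%, beside 7.35%). Gained regions were spread over HoxA (5), HoxB (4), HoxC (5) and HoxD (4), while regions of all 10 libraries were in HoxA (6) and HoxD (6) with 1 each in HoxB and HoxC. Without MEF replicate 2, 21 were gained (14.0%, beside 16.5%) and 30 lost (20.0%, beside 20.1%), 12 of the lost in HoxB. The count of the days alone was again 9 (beside 9.96%), and 17 regions (11.3%, beside 7.97%) were in the 9 other libraries, 6 in HoxA, 2 in HoxB, 3 in HoxC and 6 in HoxD. By their centre, 114 regions lay within the clusters, 20 in the anterior and 16 in the posterior flanks. The anterior flanks held none of the 14 regions present in all 10 libraries, and the posterior flanks held 1, across the start of Hoxd13 (74667085 to 74668928), with folds between 2.97 and 8.45.

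Among the regions that differed between stages, the following were picked for their values. A region at 52184772 to 52185754 in the Hoxa3 model had folds of 7.54 and 6.03 in MEF and no peak in the other 8 libraries. In HoxB a region at 96260256 to 96260700, 10.6 kb from Hoxb9 in the long gap before Hoxb13, had 9.80 and 4.18 in MEF and none elsewhere. In HoxC a region at 102931420 to 102932293, 2.6 kb from Hoxc13, was listed in ESC only, with 9.78 and 5.74. In the HoxA posterior flank a region at 52268804 to 52269387, 7.9 kb from Hoxa13, had 6.06 and 8.24 at DAY6, 8.53 and 7.29 at DAY9 and none in the other 6 libraries. The sorted stages alone listed this region, and the part of the sort was not tested.

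The clusters were compared by the share of their base pairs, with flanks, under peaks. HoxA was covered to 4.32 and 4.78% in MEF, 4.38 and 4.86% at DAY3, 5.33 and 4.40% at DAY6, 5.97 and 5.70% at DAY9, and 6.02 and 3.46% in ESC. The ESC libraries spanned the range of the other stages. HoxB was covered to 3.84 and 1.24% in MEF, 2.06 and 2.12% at DAY3, 2.22 and 1.91% at DAY6, 3.80 and 3.15% at DAY9, and 2.35 and 1.37% in ESC. HoxC was covered to 4.49 and 0.787% in MEF, 1.65 and 2.66% at DAY3, 4.80 and 2.34% at DAY6, 4.09 and 4.40% at DAY9, and 5.31 and 5.97% in ESC. In HoxC the ESC libraries lay above all others, and the MEF libraries lay far apart. HoxD was covered to 5.67 and 4.21% in MEF, 3.06 and 2.63% at DAY3, 3.88 and 3.40% at DAY6, 4.08 and 4.90% at DAY9, and 7.03 and 6.62% in ESC. In HoxD, too, both ESC libraries were above all others, and DAY3 had the lowest. The ESC lists also held the most peaks (86585 and 88980) and the DAY3 lists the fewest (45766 and 45497). These shares are not adjusted for the length of the list.

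By the exact permutation test the stages held 92.1% of the sum of squares in HoxD (p = 0.0667, 28 of 420 arrangements, 0.267 after Benjamini-Hochberg adjustment over the 4 clusters). HoxD had means of 4.94 ± 1.04% (SD, n = 2) in MEF, 2.84% at DAY3, 3.64 ± 0.340% (n = 2) in DAY6, 4.49% at DAY9 and 6.83 ± 0.289% (n = 2) in ESC. The adjusted p of the exact permutation test was 0.0423 with all 10 libraries counted separately and 0.0381 without MEF replicate 2. The HoxD difference thus passed the threshold of 0.05 under those choices and not over the 8 samples. The first choice counts the close DAY3 and DAY9 pairs as separate samples. Of the 10 libraries left out in turn, only MEF replicate 2 gave a pass. Without MEF replicate 1 the share was 98.7%, and the threshold was not passed. With equal numbers of peaks the HoxD share was 93.1%, and the adjusted exact permutation p was 0.400. For HoxC the share was 55.2%, for HoxB 34.3% and for HoxA 24.3%, each with an adjusted exact permutation p of 0.881. Without MEF replicate 2 the shares were 73.9, 88.6 and 26.3%, with adjusted p of 0.584, 0.457 and 0.933 by the same exact permutation test. With equal numbers of peaks they were 23.5% for HoxC, 48.7% for HoxB and 63.6% for HoxA. The adjusted exact permutation p was then 0.869, 0.869 and 0.714.

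**Figure D4:**
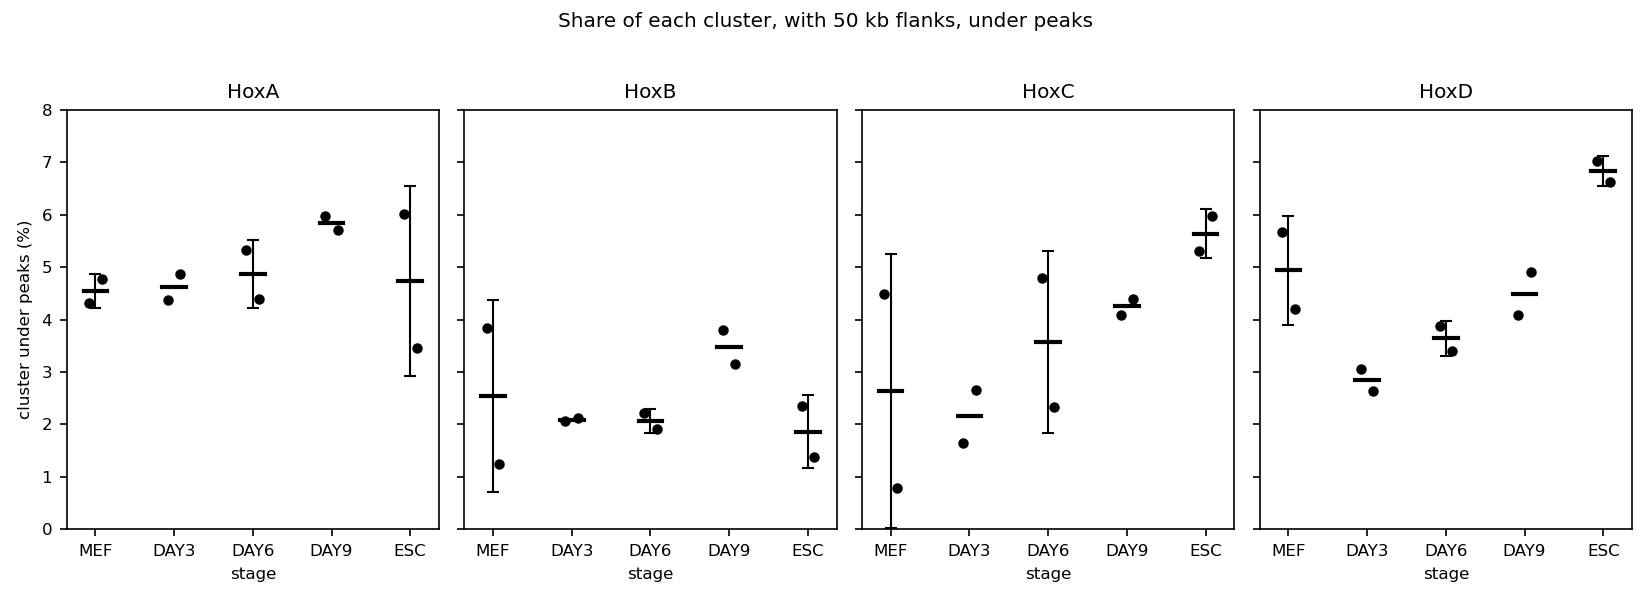
Percent of each cluster with 50 kb flanks under peaks (y axis) by stage (x axis), with points for libraries, bars for means and error bars for SD where a stage counts as 2 samples. All peaks of each list are used. In the HoxD panel both ESC points (7.03 and 6.62%) lie above the rest, and in HoxC the MEF points lie far apart (4.49 and 0.787%).

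Whether the clusters differed from each other in their course was tested on the part of all Hox peak base pairs that lay in each. HoxA took 32.2 ± 14.3% (SD, n = 2) of them in MEF and 23.7 ± 6.17% (n = 2) in ESC, and HoxB 20.4 ± 8.12% and 12.4 ± 3.09%. HoxC took 15.7 ± 11.8% in MEF and 30.5 ± 6.38% in ESC, and HoxD 31.7 ± 5.62% and 33.4 ± 2.88%. For each cluster the adjusted p over stages was 0.771 in the exact permutation test, and it lay between 0.400 and 0.752 without MEF replicate 2. No difference between the clusters in their course was thus detectable over these 8 samples.

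The anterior and posterior genes were compared by the share of their windows under peaks. Posterior windows were covered to 8.33 and 6.58% in MEF, 6.62 and 7.88% at DAY3, 10.6 and 8.28% at DAY6, 10.8 and 11.4% at DAY9, and 11.4 and 10.5% in ESC. Anterior windows were covered to 7.49 and 5.08% in MEF, 5.19 and 5.74% at DAY3, 5.85 and 5.11% at DAY6, 6.67 and 6.35% at DAY9, and 7.16 and 6.00% in ESC. The anterior values of MEF spanned those of all other stages, and DAY9 and ESC lay above DAY3 and DAY6. The posterior values of DAY9 and ESC lay above those of MEF and DAY3. Central windows had means of 5.06 ± 3.21% (SD, n = 2) in MEF, 5.84% at DAY3, 6.12 ± 1.48% (n = 2) in DAY6, 8.49% at DAY9 and 5.69 ± 0.977% (n = 2) in ESC, highest at DAY9.

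Posterior minus anterior coverage was positive in 10 of 10 libraries. It was 0.836 and 1.50 percentage points in MEF, 1.43 and 2.14 at DAY3, 4.78 and 3.18 at DAY6, 4.09 and 5.09 at DAY9, and 4.23 and 4.51 in ESC. Every library of DAY6, DAY9 and ESC lay above every library of MEF and DAY3. This separation did not hold with equal numbers of peaks. There DAY9 had 3.24 and 1.21 points and MEF 0.271 and 2.01, so that DAY9 replicate 2 lay below MEF replicate 2 and both DAY3 libraries. The stages then held 80.0% of the sum of squares (exact permutation p = 0.183). With all peaks the stages held 91.3% of the sum of squares, with an exact permutation p of 0.121 (51 of 420 arrangements). With all 10 libraries counted separately the exact permutation p was 0.0339, and without DAY6 replicate 1 it was 0.0476. Without MEF replicate 2 the share was 90.9% (exact permutation p = 0.257).

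**Figure D5:**
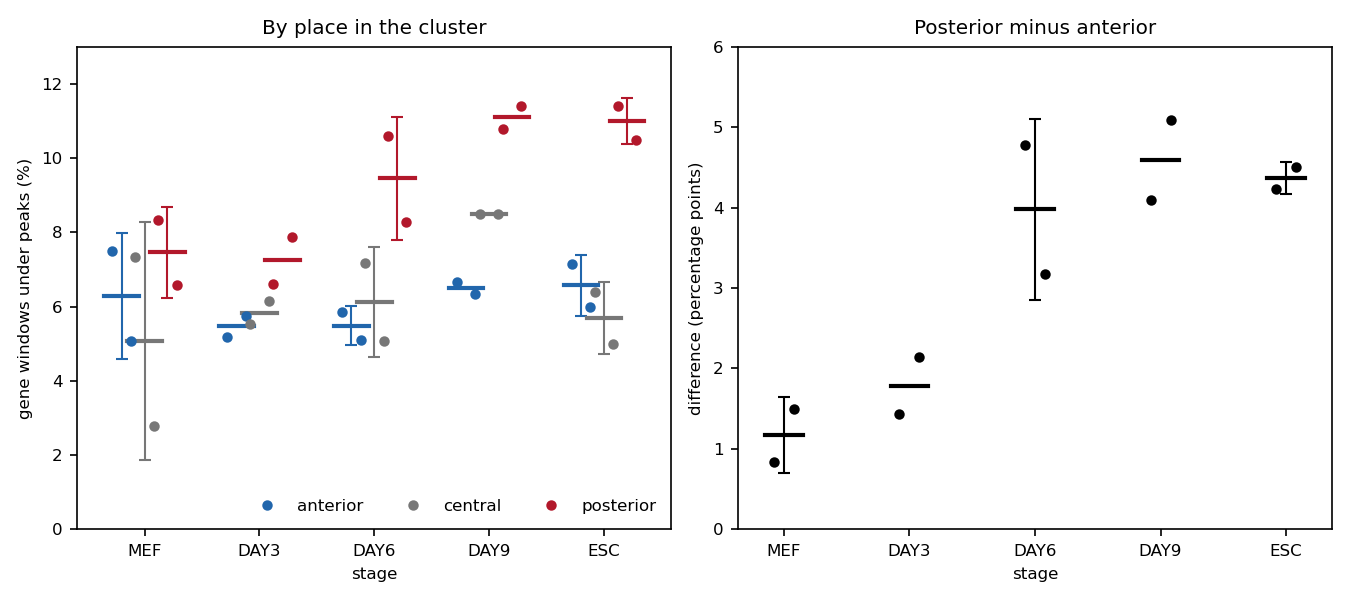
Left, percent of the merged windows of anterior, central and posterior Hox genes under peaks (y axis) by stage (x axis). Right, the posterior minus the anterior value in percentage points. Points are libraries, bars are means and error bars are SD where a stage counts as 2 samples. With all peaks of each list, the difference lies between 0.836 and 2.14 points in MEF and DAY3 and between 3.18 and 5.09 in DAY6, DAY9 and ESC.

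This difference depended on the long gene models of group 3, a choice examined after the values were seen. Without Hoxa3, Hoxb3 and Hoxd3, 5 anterior genes remained, and the difference was -1.24 and 1.67 points in MEF, -0.888 and 2.49 at DAY3, 4.17 and -0.0290 at DAY6, 3.04 and 5.61 at DAY9, and 0.552 and 1.13 in ESC. It was then positive in 7 of 10 libraries, and the means were 0.217 in MEF, 0.803 at DAY3, 2.07 for DAY6, 4.33 at DAY9 and 0.842 in ESC. The stages held 50.0% of the sum of squares (exact permutation p = 0.640).

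Other genes in or beside the clusters were read by the same rule, 17 in number. In all 10 libraries 5 of the 17 had a peak (beside 35.2% of all genes), among them the neighbours Hibadh, Mtx2, Lnpk and Smug1. In ESC against MEF 3 were gained, Evx1, Mir10b and Mir196b (beside 6.42% of all genes), and 0 were lost (beside 3.07%). Evx1, a homeobox gene next to the posterior end of HoxA, had folds of 4.33 and 5.95 at DAY6, 7.87 and 7.81 at DAY9, 5.47 and 3.83 in ESC, and none in MEF or DAY3. Evx2, its counterpart beside HoxD, had a peak in 9 of 10 libraries, from 2.55 to 5.14.

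Mir10b had 4.49 and 3.57 at DAY6 and 4.02 and 3.41 in ESC, in the region at 74727006 to 74727511 of chromosome 2 that lies also in the Hoxd4 model. At DAY6 this one region counted for both Mir10b and Hoxd4. Mir10a, with the same seed, had peaks in 9 libraries, from 3.87 (ESC replicate 2) to 7.56 (DAY9 replicate 2). Mir196b had 2.45 in DAY3 replicate 1, 2.74 and 2.55 at DAY9 and 3.11 and 2.75 in ESC. Mir196a-2 had one peak (3.17, DAY6 replicate 1) and Mir196a-1 none, so that the genes sharing a seed did not share a pattern of peaks. Hotair, an antisense RNA of HoxC, had 7.20 in MEF replicate 1 and 4.33 and 3.58 in ESC, and none in the other 7 libraries. Hottip, beside Hoxa13, had the same highest fold as Hoxa13 except in DAY9 replicate 1 (8.53 against 7.92) and ranged from 3.31 to 8.99 in 9 libraries.

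The partners and regulators of Hox genes had peaks at every stage. All 9 TALE cofactors (the Pbx, Meis and Pknox genes, whose products bind DNA together with Hox proteins) and all 13 chromatin regulators listed, among them Kmt2a of the Trithorax group and Ezh2 of the Polycomb group, had a peak in all 10 libraries. The share with a peak in all 10 libraries was 35.2% over all genes and 61.4% over protein-coding genes. Of 6 Cdx and ParaHox genes, 2 (Cdx2 and Gsx1) had a peak in all 10 libraries, and 3 were gained in ESC against MEF (beside 6.42% of all genes). Cdx4, an activator of posterior Hox genes, had 5.35 and 5.42 and Gsx2 had 4.71 and 3.68, both in ESC only. Pdx1 had 6.58 and 10.2 at DAY6, 7.45 and 5.02 at DAY9 and 9.37 and 6.50 in ESC, and none in MEF or DAY3. The genes Cdx2 and Gsx1 of the ParaHox group thus had peaks at all stages, while Gsx2 and Pdx1 were among those listed later.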

How the data were processed

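Peak lists of 10 ATAC-seq libraries were used, each called per library. Per the submitters' processing notes, Bowtie2 2.3.2, MACS2 2.1.1 and deepTools 2.3.6 were used with build mm10. Duplicate handling, transposase offset and later filters are not given in the sources used here. The authors deposited for each peak a score (10 times −log10 p, rounded down), a fold (the linear ratio between summit and local background), and the −log10 of its p- and q-value. No deposited −log10 p was under 5.00.

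Genes came from RefSeq (GRCm38.p6). A gene had a peak if at least 1 bp fell in its window. Each library gave 1 value per measure, and stages were compared with exact permutation tests over 8 samples, since the DAY3 and the DAY9 pairs, with noise ratios under 2 computed from recovered summit pileups, were averaged. Gained and lost genes were counted without a test. Named were the first and last gene of each cluster, genes gained or lost between MEF and ESC, genes in all or no libraries, and per cluster the region with the highest score in MEF replicate 1 and in ESC replicate 1. Other names were chosen after their values were seen. The values of 1 gene are not reported here, though it is in all counts and tests. The members and lists were chosen with earlier results of these data known. Samples were grouped by the stage in their labels. Replicate numbers did not pair the libraries. The scripts were tested on simulated lists. Python 3.11.15, numpy 2.4.6, pandas 2.3.3, scipy 1.17.1 and matplotlib 3.10.9 were used. Alternatives were other counts of samples, equal numbers of peaks (the 45497 strongest), the top 50% of each list, other flanks (0 or 5 kb for genes, 0 or 100 kb for clusters), 50% of the peak in the window, other gene groups, a replicate block and leaving out each library. The counts of genes present in every library and of regions without MEF replicate 2 were added after seeing the data.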

Additional observations from a re-analysis of the deposited data

How the results depend on the processing

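A peak that is not listed is not closed DNA: depth is known only relatively, the lists differ in length, and the rules behind them are not fully given. Apart from leaving out libraries, 127 values kept their direction and side of the threshold, 3 passed it newly and 44 counts of gained or lost genes moved. The cause was not tested. The 3 were the HoxD coverage (91.4% of the sum of squares between stages, adjusted p = 0.0423 in the exact permutation test) and the posterior minus anterior difference (89.8%, exact permutation p = 0.0339), both with 10 libraries counted separately, and the trend of the Hox share over the top 50% of each list (179 bp per Mb, exact permutation p = 0.0444).

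Gained and lost genes moved as follows, with the share of all genes in the same comparison and setting in brackets. Counts taken as kept are left out, and they can rest on other genes. With equal numbers of peaks DAY6 against MEF gained Hoxb6, Hoxd1 and Hoxd8 (4.18%) in place of Hoxc8 and Hoxd4. At that setting DAY3 against MEF gained 5 (2.93%) and lost 0 (2.86%), and DAY9 against MEF gained 5 (5.43%) and lost 2 (3.74%). In ESC against MEF 1 was gained (4.78%) and 0 lost (4.02%). DAY6 against DAY3 gained 0 (1.97%) and lost 3 (1.23%), and ESC against DAY9 gained 1 (2.74%) and lost 5 (3.54%). With the top 50% DAY3 against MEF gained 2 (1.58%), DAY9 against MEF gained 5 (5.88%) and ESC against MEF lost 0 (2.95%). DAY9 against DAY6 gained 1 (2.19%) and lost 0 (0.306%), and ESC against DAY9 lost 2 (2.97%). In the gene without flank DAY3 against MEF gained 2 (1.21%) and lost 0 (3.98%), and DAY9 against MEF gained 2 (4.63%). DAY6 against DAY3 gained 1 (3.05%) and lost 1 (0.489%), and ESC against DAY9 gained 1 (2.79%) and lost 0 (2.12%). With 5 kb beside the gene DAY3 against MEF lost 0 (6.00%), DAY6 against MEF gained 1 (3.82%) and ESC against MEF lost 0 (3.54%). DAY6 against DAY3 gained 1 (4.30%), DAY9 against DAY6 lost 0 (0.428%), and ESC against DAY9 gained 1 (4.06%) and lost 0 (2.96%). With 50% of the peak in the window DAY3 (1.56%) and DAY9 (5.76%) each gained 2 against MEF.

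The replicate numbers do not pair the libraries: the correlation of same-numbered deviations lay between -0.0095 and 0.0221 over 10 pairs of stages. With the replicate block a call in either same-numbered pair counts, and the share of all genes is again in brackets. DAY3 against MEF then gained 11 (5.64%) and lost 4 (14.1%), and DAY6 against MEF gained 14 (10.5%) and lost 2 (10.7%). DAY9 against MEF gained 16 (13.3%) and lost 1 (8.60%). In ESC against MEF 13 were gained (16.9%) and 2 lost (9.42%). DAY6 against DAY3 gained 7 (11.8%) and lost 2 (3.57%). From DAY6 to DAY9 4 were gained (9.28%), and ESC against DAY9 lost 7 (7.95%). In the tests by stage the block changed no call: genes with a peak 65.0% (p = 0.233), posterior minus anterior 90.2% (p = 0.0833) and HoxD 93.2% (adjusted p = 0.167), all by exact permutation within the replicate number.

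Leaving out each library in turn kept 177 values and moved 16. The trend of the Hox share ran from -56.7 (without MEF replicate 2, reversed) to 166 bp per Mb. The stages' share for posterior minus anterior ran from 88.4 to 98.5% and passed the threshold without DAY6 replicate 1 (98.2%). For HoxD it ran from 88.4 to 98.7% and passed without MEF replicate 2. Against MEF the gained genes ran from 1 to 10 in DAY3, 2 to 13 in DAY6, 1 to 15 in DAY9 and 2 to 12 in ESC. The highest counts were without MEF replicate 1, where 3.02, 6.11, 9.36 and 9.66% of all genes were gained in the same order. The lost genes ran from 1 to 4 in DAY3 (the highest without MEF replicate 2, beside 8.48% of all genes), 0 to 2 in DAY6, 0 to 1 in DAY9 and 1 to 2 in ESC. DAY6 against DAY3 gained 2 to 5 and lost 0 to 2. From DAY6 to DAY9 0 to 4 were gained, and ESC against DAY9 lost 1 to 6. Leaving out a library of a stage makes the rule easier to meet for every gene. The share of all genes was taken only for the sets without a MEF library. The other counts have no such share beside them, and a rise in them cannot be read as a result about Hox genes.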
